A study of Mus musculus with 4 samples.

Results

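The response of hemin-loaded Spic-/- macrophages to lipopolysaccharide (LPS) was read from 2 of the 4 libraries of the series, the Spic-/- library with LPS and the Spic-/- library without it. A gene entered the comparison when it reached at least 5 FPKM (fragments per kilobase of transcript, scaled between libraries) in at least 1 of these 2 libraries, which 8098 of the 23284 listed genes did. The response of a gene is its log2 ratio of (FPKM + 1), with LPS over without. All libraries came from mouse bone marrow-derived macrophages, which are grown in culture from marrow progenitors, and all cultures had 18 h with hemin (heme with its iron oxidised) before LPS at 100 ng/ml or no LPS for 4 h. The groups were Spic+/+ (called control) without LPS, Spic+/+ with LPS, Spic-/- without LPS and Spic-/- with LPS, and each held 1 library. The protocol gives the hemin dose as 40 µM, while the sample descriptions print the same figure in mM. The titles abbreviate the knockout as cKO, and neither the allele nor a Cre driver is given, nor the number or age of the mice. No library without hemin was analysed here, so every value below describes cells that carried a heme load. With 1 library a side there is no replicate check, no p-value and no standard error. Intervals given below are exact (Clopper-Pearson) 95% intervals from estimated fragments and cover counting error only.

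LPS is a component of the outer membrane of Gram-negative bacteria that binds Toll-like receptor 4 with the help of Cd14. The receptor signals through the adaptor Myd88 to NF-kB and the MAP kinases, which drive cytokine and chemokine genes, and through the adaptor Trif to Irf3, which drives interferon beta and, through its receptor, the interferon-stimulated genes. Spi-C, encoded by Spic, is an Ets-family transcription factor related to PU.1 that heme induces in macrophages, and it is best known from the iron-recycling macrophages of the spleen. The title of the series places it as a heme-induced factor that lowers part of the genes driven by Toll-like receptors.

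Spic itself, on chromosome 10 at 88674772 to 88685015 on the minus strand (GRCm38), was listed at 53.1 FPKM in untreated control, 406 FPKM in LPS-treated control, 14.98 FPKM in the untreated knockout and 80.8 FPKM in the LPS-treated knockout. It was thus lower in each knockout library than in the control library of the same treatment, but it was not absent, and it was higher with LPS in both genotypes. The log2 ratio in the knockout was 2.36, an FPKM ratio with an interval of 4.74 to 6.16, from about 301 and 1013 fragments. A sum per gene does not show which exons the fragments came from, so it cannot tell a transcript without the deleted part from an intact one.

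Most macrophage markers were high in both knockout libraries. Emr1, which encodes F4/80, stood at 549 to 790.3 FPKM without and with LPS, Csf1r, the receptor for the growth factor Csf1, at 371 to 312 FPKM, and the lysosomal glycoprotein Cd68 at 789 to 636 FPKM. Of 11 macrophage markers 10 reached 5 FPKM, of which Cd14 and Sfpi1 (PU.1) were at least 2-fold higher with LPS and 1 was at least 2-fold lower. The median log2 ratio of these 10 was -0.24. Cd163 stayed at or under 0.129 FPKM in both. The summed level of 9 neutrophil markers was 31.9 FPKM without and 131.1 FPKM with LPS, most of it S100a8 and S100a9, and Mpo was listed at 0. Dendritic cell, B cell, T and NK cell, erythroid and mast cell markers summed to under 2 FPKM each in both knockout libraries. The 12 stromal markers summed to 461.5 and 521.5 FPKM in the knockout and to 924.1 and 915.9 FPKM in control, so the knockout cultures carried less stromal signal at either treatment. The part of these cells in the ratios was not tested. In bulk RNA, fewer cells of a type and less RNA per cell cannot be told apart.

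The number of fragments behind 1 FPKM differed between the libraries. From the spacing of low values, the knockout libraries held 82.8% (no LPS) and 51.6% (LPS) and the LPS-treated control 67.8% of the fragments per FPKM of the untreated control. A gene of 2 kb at 5 FPKM thus rested on about 116 fragments without LPS and 72 with LPS in the knockout. These shares are per FPKM and are not totals of sequenced fragments. The summed FPKM was 525348 without and 819232 with LPS in the knockout, and 500123 and 736818 in control. Libraries with fewer fragments per FPKM had the higher summed FPKM.

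In the knockout, LPS came with at least 2-fold higher values for 1109 of the 8098 genes (13.7%), and 627 (7.74%) were at least 2-fold lower. The middle of the distribution lay near 0: the median log2 ratio was 0.12, the quartiles were -0.37 and 0.59, and 4669 genes (57.7%) differed by less than 1.5-fold. Median-ratio factors of the deposited values were 1.002 without and 0.9975 with LPS in the knockout. The deposited scale thus already places the median near 0, and the median does not show how RNA per cell moved. The tails were unequal. At least 8-fold, 220 genes were higher and 34 lower. At least 64-fold, 29 genes were higher and 7 lower. Small RNA genes and unnamed features made up 555 of the tested genes, 80 of the higher and 74 of the lower ones. Around the threshold itself, Ftsjd2 and H2-Q4 lay just inside at log2 ratios of 1.001 and 1.002 and Fzd7 and Lox just outside at 0.9978 and 0.9981. On the other side Myo18a and Pnpla7 were inside at -1.0004 and -1.0001, while Mpg and Rcc2 were outside at -0.9985 and -0.9950.

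**Figure D1:**
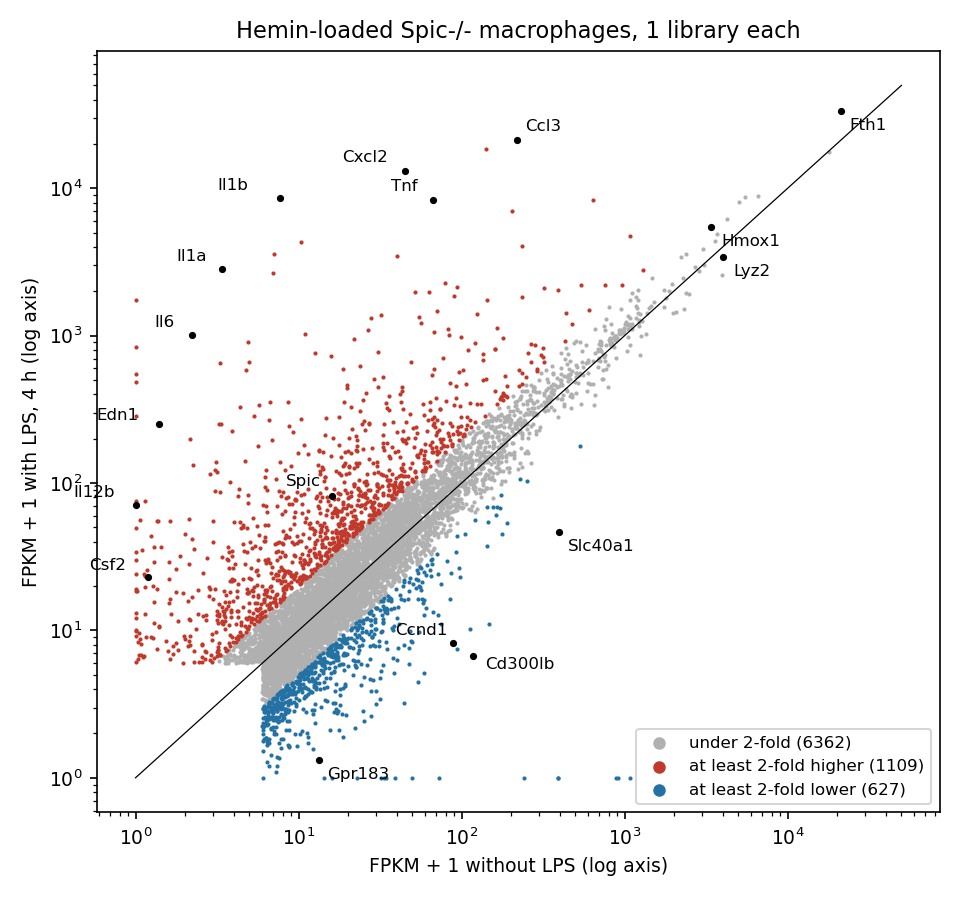
FPKM + 1 of each tested gene without LPS (horizontal, log axis) and with LPS (vertical, log axis) in the knockout, 1 library each, with 1109 genes at least 2-fold higher in red, 627 at least 2-fold lower in blue and the line of equal values in black. The induced genes reach from below 1 FPKM, such as Il12b, to levels beside ferritin, such as Ccl3, and lie farther from the line than the lowered genes.

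The balance of higher against lower genes depends on the scale. Of all genes past 2-fold, 63.9% were higher on the deposited scale and 51.9% after upper-quartile scaling, which shifts log2 ratios by -0.18, or 45.8% after upper-quartile scaling over genes above 0 in every library, which shifts them by -0.27. The genes counted as higher held 7.30% of the summed FPKM of the knockout without LPS and 33.9% with LPS, against 8.36% and 30.5% for these genes in control. Which scale is nearer to RNA per cell was not tested. A direction is stated below only where the log2 ratio or median lies beyond these shifts, or the reversal is named. These shifts do not cover scaling to the summed FPKM, which rose from 525348 without to 819232 with LPS in the knockout. That scaling was not run and would lower log2 ratios by more. Small positive ratios below therefore hold only on the scales named. For gene lists, counts refer to members with at least 5 FPKM, and medians to members with at least 1 FPKM in either knockout library, since a member can pass the higher limit through its LPS value alone. The medians stand beside a median of 0.02 over all 10673 genes with at least 1 FPKM. The counts stand beside 13.7% higher and 7.74% lower of all tested genes, and the shares of several lists below lie near these.

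Inflammatory cytokines held the highest ratios of the response. Of 30 listed genes 21 reached 5 FPKM, 19 of these were at least 2-fold higher with LPS and none was at least 2-fold lower, and the median log2 ratio was 4.37 over 25 members. Il1b, which encodes the fever-inducing cytokine interleukin-1 beta, had the highest ratio outside small RNA genes. It was listed at 1.37 FPKM in untreated control, 5779.5 FPKM in LPS-treated control, 6.70 FPKM in the untreated knockout and 8589 FPKM in the LPS-treated knockout. Both LPS libraries were thus higher than both libraries without LPS, and the knockout log2 ratio was 10.12, an interval of the FPKM ratio of 1058 to 1584. Il1a, the membrane-bound relative of Il1b, was listed at 1.67, 1487, 2.41 and 2817 FPKM in the same order of libraries, with a knockout log2 ratio of 9.69. Il6, the cytokine that drives the hepatic acute-phase response, was listed at 0.145, 577, 1.23 and 1004 FPKM, with a ratio of 8.82. Tnf, the early cytokine that acts on endothelium and other macrophages, was already transcribed without LPS. Its values were 49.0, 4840.3, 65.5 and 8392 FPKM and its knockout ratio was 6.98. Cytokines that steer T cells were also higher. Il27 went from 3.73 to 582 FPKM in the knockout, and Il12b, the shared subunit of interleukin-12 and interleukin-23, was listed at 0 without LPS and at 69.7 FPKM with it. Il23a, the other subunit of interleukin-23, was likewise listed at 0 without LPS and stood at 32.8 FPKM with it. The anti-inflammatory cytokine Il10 was higher as well, with 5.70 FPKM without and 357 FPKM with LPS and a log2 ratio of 5.74, and so was Il1rn, the antagonist of the interleukin-1 receptor, with 69.4 to 1459.6 FPKM. Of the secreted growth factors on a separate list, 7 of 14 were at least 2-fold higher, among them Csf2 and Csf3, which act on granulocytes and macrophages, and Edn1, the vasoconstrictor endothelin. Edn1 was among the 15 highest ratios at 7.49, from 0.398 to 249.8 FPKM.

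**Figure D2:**
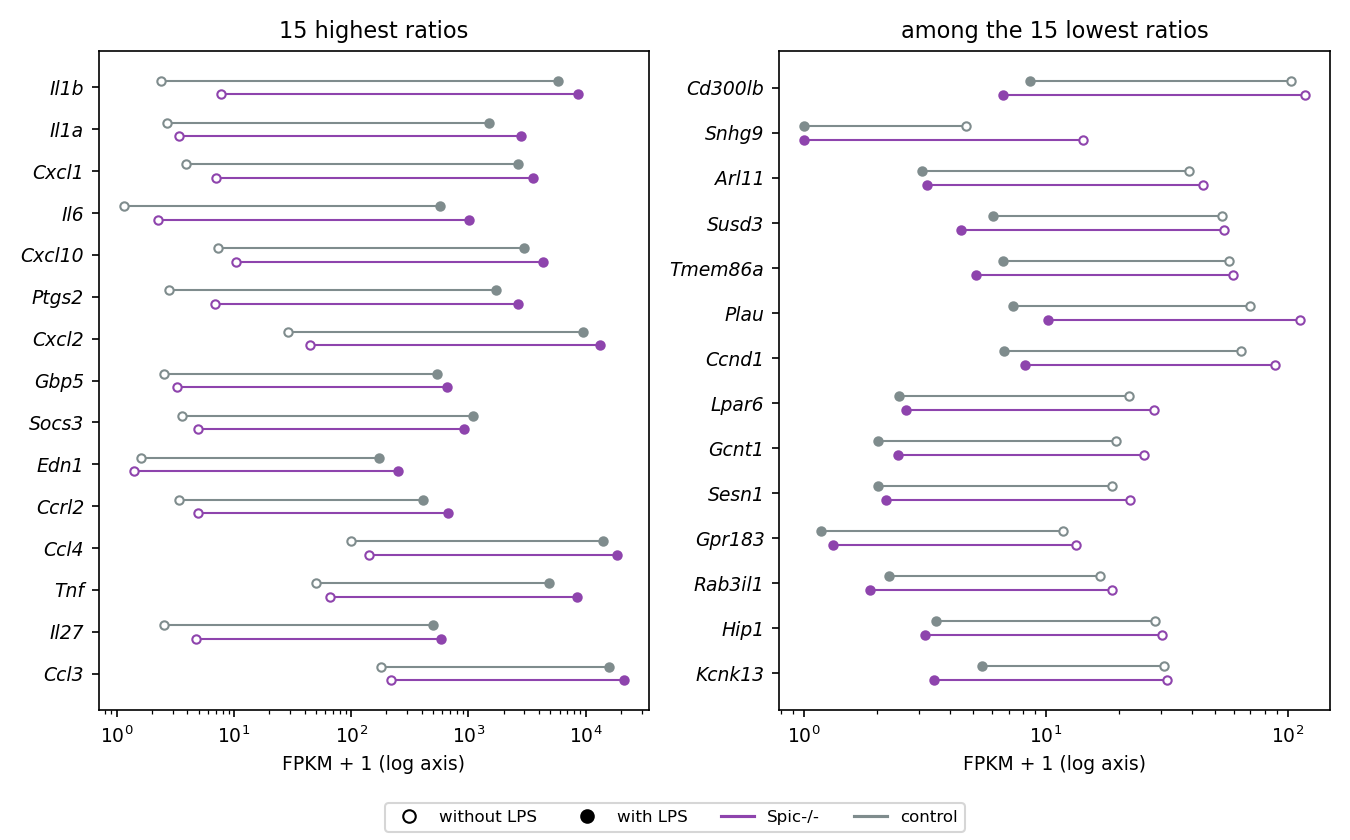
FPKM + 1 (log axis) of the 15 genes with the highest (left) and of genes among the 15 with the lowest (right) LPS ratios in the knockout, leaving out small RNA, unnamed and ribosomal protein genes, with open points for libraries without and filled points for libraries with LPS, purple for Spic-/- and grey for control. Each gene moves in the same direction in both genotypes, and Snhg9 is listed at 0 in both libraries with LPS.

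Chemokines followed, the secreted proteins that recruit leukocytes. Of 27 listed genes 23 reached 5 FPKM and 18 of these were at least 2-fold higher, none at least 2-fold lower, with a median log2 ratio of 3.19. The neutrophil attractants Cxcl1 and Cxcl2 had log2 ratios of 8.99 and 8.21. Cxcl1 was listed at 2.94, 2648, 6.05 and 3584 FPKM in untreated control, LPS-treated control, untreated knockout and LPS-treated knockout, and Cxcl2 at 27.7, 9510.1, 43.7 and 13211 FPKM. The interferon-induced attractant of T cells Cxcl10 was listed at 6.38, 2987, 9.36 and 4355 FPKM and had a knockout ratio of 8.72. Ccl3 and Ccl4, which attract monocytes and T cells, were present without LPS and reached very high levels with it. Ccl3 went from 217 to 21376 FPKM and Ccl4 from 141 to 18411 FPKM in the knockout, and in control from 179 to 15890.0 FPKM and 99.5 to 13971 FPKM. The monocyte attractant Ccl2 stood at 318 to 2098 FPKM, a log2 ratio of 2.72. Of 7 chemokine receptors tested, 3 were at least 2-fold lower, Ccr2, Cxcr4 and Cx3cr1, and Ccrl2, a non-signalling receptor that presents chemerin, was higher at 3.98 to 666 FPKM and a ratio of 7.07. Cx3cr1, the fractalkine receptor, went from 5.77 to 0.422 FPKM, and with a pseudocount of 5 FPKM its log2 ratio was -0.99. At that pseudocount Cxcr4 alone of the 3 lower receptors passed 2-fold.

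Almost every listed interferon-stimulated gene was higher with LPS. Of 48 listed antiviral genes 47 were in the files and tested, and 45 were at least 2-fold higher, none at least 2-fold lower, with a median log2 ratio of 2.13; on the scales above the count was 42 and 41. Ifi205, a DNA-sensing protein of the p200 family whose paralogs share sequence with it, was listed at 13.8, 1097, 26.8 and 1318 FPKM in the order given above. Ifit1, which binds viral RNA caps, went from 20.8 to 945 FPKM in the knockout, and Rsad2, which makes a chain-terminating nucleotide, from 31.1 to 1384 FPKM. Oasl1 went from 25.6 to 1097 FPKM. The transcript of interferon beta itself was low. Ifnb1 was listed at 0.228, 6.71, 0.138 and 11.9 FPKM, and its knockout ratio rests on about 1 fragment without LPS, with an interval of the FPKM ratio of 14.3 to 3357. The guanylate-binding proteins and immunity-related GTPases, which attack the vacuoles of intracellular microbes, were higher in all 15 members tested, of 19 listed, with a median of 2.98. Gbp5 was listed at 1.55, 534, 2.28 and 656 FPKM with a knockout ratio of 7.65, and Gbp2 went from 16.6 to 280.0 FPKM. Several of these GTPases and of the Slfn, Oas and p200 genes are close copies, so fragments may be split between them. Of the interferon regulatory factors 1 of 7 was at least 2-fold higher, Irf1, at 34.1 to 323 FPKM, a share near the 13.7% of all tested genes. Irf8, a lineage factor of macrophages and dendritic cells, had a log2 ratio of -0.91 and passed 2-fold lower after upper-quartile scaling, at -1.09.

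Promoters are shown of the member with the highest ratio in each of these groups whose window held a motif searched for, and of Cd300lb, the lowest gene that is not a small RNA, unnamed or ribosomal protein gene. For the GTPases the window had to hold an interferon response core, so its presence in Gbp5 was set by the choice. The Gbp5 window belongs to a start inside the gene's span of 142493978 to 142522344. Il1a stands in for Il1b, whose window held none of the motifs. The sequences come from RefSeq on GRCm38.p6, 5′ to 3′ on the gene's strand, and end before the first annotated exon, within 250 bases before the RefSeq start. Capitals mark matches on either strand to a kB core (GGNNNTTCC), an interferon response core (AAANNGAAA), an AP-1 site (TGANTCA) or a PU box (GAGGAA). Il1a lies at chr2:129309973-129310222 on the minus strand, Cxcl1 at chr5:90890995-90891240 on the plus strand, Ifi205 at chr1:174031811-174032005 on the minus strand, Gbp5 at chr3:142496684-142496899 on the plus strand and Cd300lb at chr11:114934387-114934621 on the minus strand.
Il1a: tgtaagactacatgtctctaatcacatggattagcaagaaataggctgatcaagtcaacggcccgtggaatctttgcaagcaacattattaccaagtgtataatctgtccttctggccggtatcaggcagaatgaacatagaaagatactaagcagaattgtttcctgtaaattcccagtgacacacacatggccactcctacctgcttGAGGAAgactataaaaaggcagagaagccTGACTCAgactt
Cxcl1: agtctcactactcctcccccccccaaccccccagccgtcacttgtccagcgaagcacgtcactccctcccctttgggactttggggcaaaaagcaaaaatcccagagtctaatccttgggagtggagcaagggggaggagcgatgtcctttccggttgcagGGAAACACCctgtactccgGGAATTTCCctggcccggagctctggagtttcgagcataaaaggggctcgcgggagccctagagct
Ifi205: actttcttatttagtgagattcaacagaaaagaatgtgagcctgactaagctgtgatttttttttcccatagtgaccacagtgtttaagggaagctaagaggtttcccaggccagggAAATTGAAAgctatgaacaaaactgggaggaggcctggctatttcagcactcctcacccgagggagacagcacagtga
Gbp5: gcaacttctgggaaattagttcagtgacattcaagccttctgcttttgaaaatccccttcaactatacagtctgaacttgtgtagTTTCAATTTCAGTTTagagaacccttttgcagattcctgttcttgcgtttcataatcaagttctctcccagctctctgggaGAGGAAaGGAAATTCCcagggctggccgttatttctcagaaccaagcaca
Cd300lb: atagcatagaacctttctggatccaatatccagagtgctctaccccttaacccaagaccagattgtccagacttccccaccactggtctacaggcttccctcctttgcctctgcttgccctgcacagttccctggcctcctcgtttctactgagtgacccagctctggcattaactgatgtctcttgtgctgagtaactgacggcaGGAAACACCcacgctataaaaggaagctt
The Il1a window holds an AP-1 match 12 bases and a PU box 41 bases before the start. The Cxcl1 window holds kB cores beginning 89 and 70 bases before the start, and the Ifi205 window an interferon response core 133 bases before it. The Gbp5 window holds a pair of overlapping interferon response cores beginning 165 and 159 bases before the start, a PU box next to a kB core, and the Cd300lb window a kB core 44 bases before the start.

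These letters are common, so a match is a description and no site. Of the 250-base windows of all RefSeq promoters in the table, 15.7% hold a kB core, 9.37% an interferon response core, 6.75% an AP-1 site and 23.2% a PU box. For the tested genes the table held 6533 of 8098, with 8353 windows, and the shares were 19.1%, 7.58%, 4.56% and 23.4%. Windows of genes at least 8-fold higher with LPS, 192 in number, held the interferon response core in 20.8% and the AP-1 site in 13.5%. Of the windows of tested cytokine and chemokine genes, 14 of 32 held a kB core (43.8%), 6 an interferon response core (18.75%) and 7 an AP-1 site (21.9%). Of the windows of interferon-stimulated antiviral genes, 21 of 45 held the interferon response core (46.7%), 15 a kB core (33.3%) and 9 an AP-1 site. Of those of the guanylate-binding and immunity-related GTPases, 11 of 12 held the interferon response core (91.7%) and 2 an AP-1 site (16.7%). The kB core was also in 2 of these 12 windows, a share below the 19.1% of all tested genes. The windows came from 30 of 44 cytokine and chemokine genes, 35 of 46 antiviral genes and 11 of 15 GTPases looked up. The share of the PU box, the letters that PU.1 and its relatives read, was 25.7% in the windows of lowered genes, 24.8% in those of genes at least 2-fold higher and 31.8% in those of genes at least 8-fold higher. It was 37.5% for cytokines and chemokines, 31.1% for the antiviral genes and 41.7% (5 of 12) for the GTPases, against the 23.4% of all tested genes. Genes with several starts give several windows, and copies share sequence.

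Several inhibitors of the pathway were higher with LPS as well, though not every family moved as a whole. Of 21 NF-kB subunits and feedback inhibitors 18 were at least 2-fold higher and none at least 2-fold lower, with a median of 2.87. Nfkbia, the inhibitor that holds NF-kB in the cytoplasm, was listed at 106, 1633, 143 and 1738 FPKM, a knockout ratio of 3.59. Tnfaip3, the ubiquitin-editing enzyme A20, went from 14.9 to 725 FPKM and Nfkbiz, a nuclear cofactor of NF-kB, from 7.58 to 355 FPKM. Among the inhibitors of cytokine receptor signalling, Socs3 was listed at 2.59, 1099.8, 3.93 and 911 FPKM, so that the knockout was the higher library without LPS and the lower with it, and its knockout ratio was 7.53. Socs1 went from 2.06 to 87.8 FPKM. Zfp36 and Zc3h12a, which degrade cytokine messages, went from 82.4 to 1015 FPKM and from 15.3 to 201 FPKM, while the relative Zfp36l2 was lower, from 74.2 to 19.7 FPKM. Of 12 such decay factors 5 were at least 2-fold higher and 2 lower. Of 9 dual-specificity phosphatases tested, which switch off MAP kinases, 3 were at least 2-fold higher and 2 lower, or 3 and 3 after upper-quartile scaling. Of all tested genes 13.7% were higher and 7.74% lower. Among these phosphatases Dusp2 had a log2 ratio of 6.27, Dusp1 of 2.31 and Dusp6 of -2.44.

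The sensing machinery gave a mixed picture. Of 15 Toll-like receptors and co-receptors 4 were at least 2-fold higher, Tlr1, Tlr2, Tlr3 and Cd14, and 2 lower, Tlr9 and Tlr13, and the median of 0.11 turned to -0.07 after upper-quartile scaling. Of all tested genes 13.7% were higher and 7.74% lower. Cd14, the co-receptor for LPS, was listed at 114, 3523, 234 and 4092 FPKM, with a knockout ratio of 4.13. Tlr4, the receptor for LPS, went from 28.7 to 16.2 FPKM with a ratio of -0.79, and Tlr13, which reads bacterial ribosomal RNA, from 188 to 52.5 FPKM with a ratio of -1.82. Of 26 adaptors and kinases 11 were at least 2-fold higher and 1, Tab1, lower. Myd88 went from 54.6 to 159 FPKM, and the kinase Irak2 from 21.1 to 126 FPKM. Nlrp3, the sensor of the inflammasome that processes interleukin-1 beta, went from 24.8 to 409 FPKM, 1 of 3 inflammasome genes at least 2-fold higher of 14.

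Most surface ligands for T cells were higher with LPS, while fewer antigen-presenting molecules passed 2-fold. Of 14 costimulatory and checkpoint ligands 9 were at least 2-fold higher and 2 lower. Cd40, through which T cells activate macrophages, was listed at 9.46, 622, 11.6 and 760.3 FPKM, a knockout ratio of 5.92. Cd274, the checkpoint ligand PD-L1, went from 42.2 to 444 FPKM. Of 19 genes of MHC class I and the immunoproteasome 9 were at least 2-fold higher on the deposited scale and 4 after either upper-quartile scaling, with a median of 0.95. Their share of the summed FPKM in the knockout was 2.67% without and 2.495% with LPS. Tap1, which pumps peptides into the endoplasmic reticulum, went from 57.7 to 155 FPKM. The MHC class II list had a median of 0.26, which became 0.08 and -0.001 on the other scales. Of its 7 tested members H2-Ab1, at 34.2 to 81.4 FPKM, was the 1 at least 2-fold higher, a share near the 13.7% of all tested genes. After upper-quartile scaling over genes above 0 in every library, none was higher and 1 was lower.

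Enzymes that make lipid and gas mediators, and antimicrobial proteins, were mostly higher. Ptgs2, the inducible cyclooxygenase, was listed at 1.82, 1709.8, 5.93 and 2660.4 FPKM, with a knockout ratio of 8.59. Irg1, which makes itaconate, went from 39.4 to 3458 FPKM, and Nos2, the inducible nitric oxide synthase, from 0.143 to 74.2 FPKM. In all, 11 of 19 genes of this list were at least 2-fold higher and 1, Ass1, lower. Of 15 secreted antimicrobial and acute-phase proteins 12 were at least 2-fold higher. Among them the acute-phase protein Saa3 went from 204 to 7016 FPKM, and Lcn2, which binds the iron carriers of bacteria, from 5.63 to 265 FPKM. Marcksl1, an actin-associated substrate of protein kinase C, went from 50.8 to 1991 FPKM. Mmp13, a collagenase, went from 29.6 to 777 FPKM. In the plasminogen system the inhibitor Serpinb2 was higher, at 2.36 to 249 FPKM, and the activator Plau was lower, at 111 to 9.17 FPKM.

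**Figure D3:**
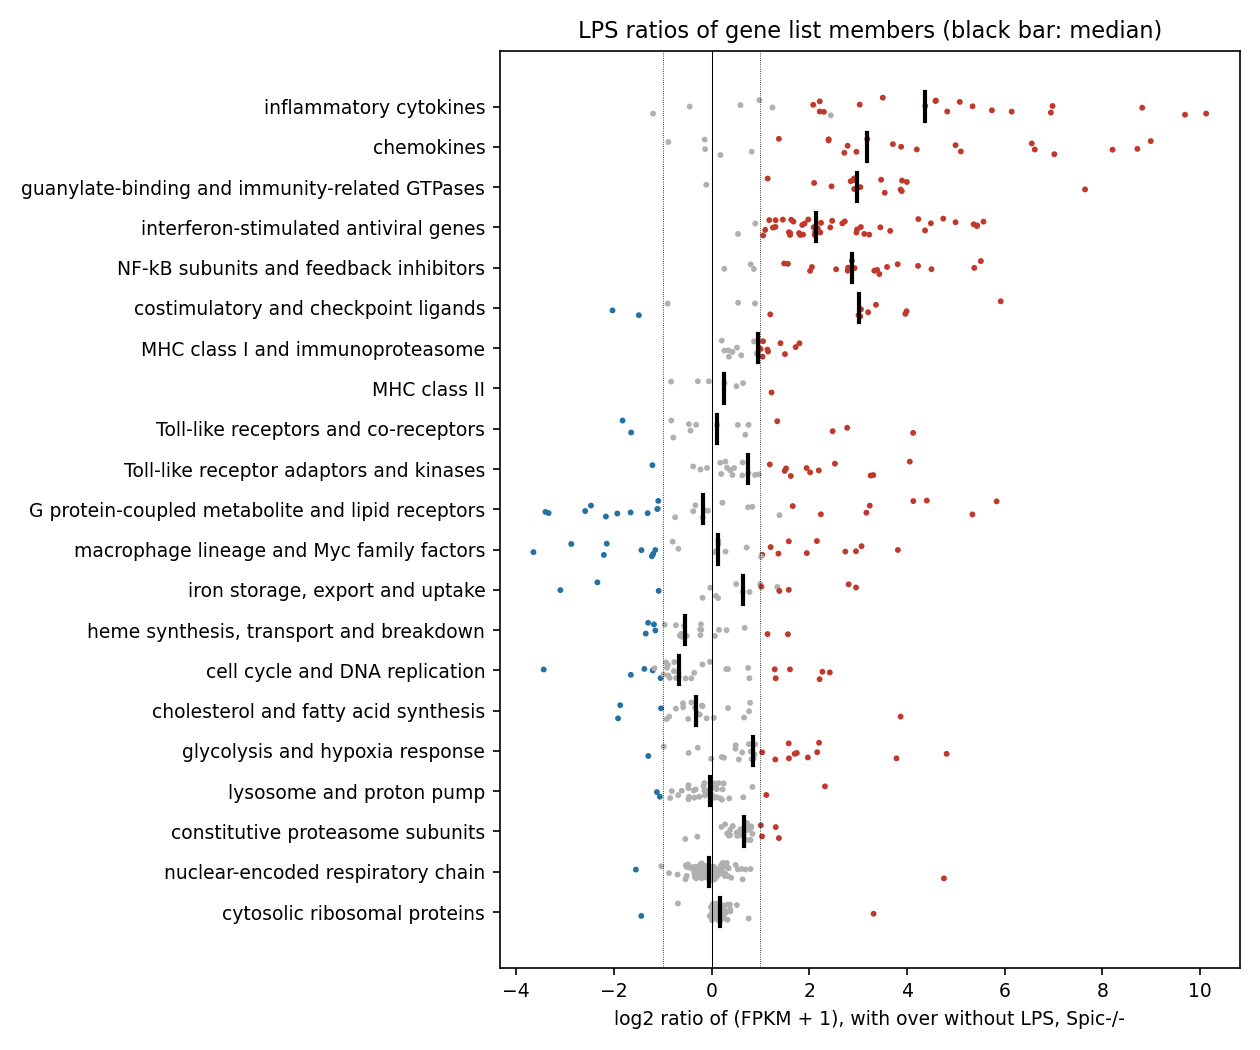
Knockout log2 ratio of (FPKM + 1), with over without LPS, of each member of 21 gene lists with at least 1 FPKM, with the list median as a black bar and members with at least 5 FPKM in red where at least 2-fold higher and in blue where at least 2-fold lower. Medians range from 4.37 for inflammatory cytokines to -0.68 for cell cycle and DNA replication, and ribosomal proteins and the respiratory chain crowd around 0.

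The 7 genes at least 64-fold lower were all small RNA genes listed at 0 with LPS. Leaving out small RNA, unnamed and ribosomal protein genes, Cd300lb, an activating surface receptor, had the lowest ratio. It was listed at 102 FPKM in untreated control, 7.62 FPKM in LPS-treated control, 116 FPKM in the untreated knockout and 5.66 FPKM in the LPS-treated knockout, so that both LPS libraries were below both others, and the knockout log2 ratio was -4.14. Ccnd1, the D-type cyclin that growth factors induce, was listed at 62.7, 5.68, 87.7 and 7.18 FPKM, a ratio of -3.44. The stress-induced regulator Sesn1, which restrains growth signalling, went from 21.1 to 1.19 FPKM. The GTPase Arl11 went from 43.4 to 2.24 FPKM, and the oxysterol receptor Gpr183, which guides leukocyte migration, from 12.3 to 0.317 FPKM, a ratio of -3.34 on (FPKM + 1) that a pseudocount of 5 FPKM reduced to -1.70. Susd3, Tmem86a, Plau, Lpar6, Gcnt1, Rab3il1, Hip1 and Kcnk13 were also among the 15 lowest, with ratios between -3.61 and -3.20. Snhg9 was also among the 15 lowest, from 13.3 FPKM to a listed 0, but it is short, its host sequence overlaps a small nucleolar RNA and its values are uncertain.

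Receptors for metabolites and lipids were found on both sides. Of 24 tested 8 were at least 2-fold higher and 10 lower. The higher ones included Niacr1, the receptor for niacin and ketone bodies, at 2.93 to 224 FPKM, the adenosine receptors Adora2a and Adora2b, at 0.365 to 54.3 FPKM and 3.31 to 90.2 FPKM, and Gpr84, a receptor for medium-chain fatty acids, at 28.0 to 506 FPKM. The lower ones included Gpr183, Lpar6, Lpar5, Gpr35, Gpr65, P2ry6, P2rx7, S1pr1 and S1pr2. Transcription factors of the lineage and of the Myc family were similarly divided, with 10 higher and 8 lower (5 lower with a pseudocount of 5 FPKM) of 24 tested, against a background of 13.7% and 7.74%. Myc went from 18.2 to 3.17 FPKM and Mycl1, its relative, in the other direction from 0.352 to 18.0 FPKM. Sfpi1, which encodes PU.1, the factor that opens macrophage enhancers, went from 322 to 661 FPKM, a ratio of 1.04 that became 0.85 after upper-quartile scaling. Of 12 tested Ets factors other than Spic, Sfpi1, Ets2 and Etv3 were at least 2-fold higher and Fli1 lower, beside 13.7% and 7.74% of all tested genes. The higher count was 2 after either upper-quartile scaling, and the median of 0.26 became 0.09 and 0.01. Among 27 Fc gamma, Siglec, CD300 and C-type lectin receptors, 5 were higher and 3 lower, beside the same 13.7% and 7.74%. The counts were 4 and 5 after upper-quartile scaling over genes above 0 in every library. The median of 0.01 turned to -0.17 after upper-quartile scaling. On the deposited scale the lower ones were Cd300lb, Cd300a and Clec10a. Among the higher ones were Clec4e, a sensor of mycobacterial lipid, at 61.8 to 1988 FPKM, and the inhibitory receptor Fcgr2b, at 22.7 to 622 FPKM. Of 17 receptors for debris and dead cells 3 were lower, Scarb1, Stab1 and Lrp1, and 2 higher, Marco and Axl, beside 7.74% lower and 13.7% higher of all tested genes. The counts of these 17 receptors became 5 lower and 1 higher after upper-quartile scaling, and 7 and 1 over genes above 0 in every library.

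The transcript of the iron exporter was lower with LPS, and ferritin remained the most abundant message. Slc40a1, which encodes ferroportin, the exporter of iron, was listed at 395, 46.7, 396 and 45.4 FPKM, with a knockout ratio of -3.10 and an interval of the fold decrease of 8.22 to 9.27. The ferritin heavy chain Fth1, which stores iron, had the highest level of all, 21322 FPKM without and 33244 FPKM with LPS, a ratio of 0.64, and the light chain Ftl1 went from 17875 to 17538 FPKM, a ratio of -0.03. Ferroportin was therefore lower with LPS in both genotypes while ferritin transcripts stayed within 2-fold. Of 16 iron genes 5 were at least 2-fold higher, Tfrc, Cp, Slc25a37, Slc39a14 and Pcbp2, and 3 lower, Slc40a1, Steap3 and Hfe. Of all tested genes 13.7% were higher and 7.74% lower. After either upper-quartile scaling 4 iron genes were higher and 3 lower. Slc39a14, an importer of non-transferrin iron, went from 9.85 to 83.2 FPKM and the ferroxidase Cp from 5.19 to 42.3 FPKM. Hmox1, the enzyme that breaks heme down, was listed at 3396, 5423, 3395 and 5426 FPKM, so that the genotypes were close at either treatment and the LPS ratio was 0.68. In the list for heme synthesis, transport and breakdown 2 genes were higher, Alas1 and Hp, and 4 lower of 19, or 1 lower with a pseudocount of 5 FPKM. These stand beside 13.7% higher and 7.74% lower of all tested genes. Alas1, the first enzyme of heme synthesis, went from 31.3 to 94.4 FPKM. Among NRF2 and glutathione genes the cystine importer Slc7a11 went from 2.18 to 118 FPKM, the metal-binding Mt2 from 4.66 to 177 FPKM, mitochondrial Sod2 from 66.7 to 596 FPKM and the autophagy receptor Sqstm1 from 1079.9 to 4779 FPKM, 4 of 8 members at least 2-fold higher of 29, and the list's median was -0.02.

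Among metabolic genes the glycolytic ones were the most often higher. Of 26 genes of glycolysis and the hypoxia response 11 were at least 2-fold higher and 1, Pfkfb4, lower, with a median of 0.84. The whole list held 1.108% of the summed FPKM without and 1.15% with LPS in the knockout. The glucose transporters Slc2a6 and Slc2a1 went from 7.69 to 243 FPKM and from 51.3 to 239 FPKM, hexokinase Hk2 from 8.73 to 42.5 FPKM and Pfkfb3, which makes an activator of glycolysis, from 10.4 to 156 FPKM. Genes of the citric acid cycle lay near 0, with 1 of 22 at least 2-fold higher, Dld, which was under 2-fold after upper-quartile scaling, and a median of 0.04 that turned to -0.15 on that scale. For synthesis of cholesterol and fatty acids, 3 of 15 genes were lower, Sqle, Dhcr7 and Sc4mol (5 after upper-quartile scaling, 1 with a pseudocount of 5 FPKM), and Acsl1, which activates fatty acids, was higher at 23.9 to 363 FPKM. Of 135 solute carriers 18 were higher and 18 lower, beside 13.7% and 7.74% of all tested genes, and these became 16 and 22 after upper-quartile scaling, 15 and 26 over genes above 0 in every library, and 16 and 7 with a pseudocount of 5 FPKM. The arginine transporter Slc7a2 was the extreme at 1.24 to 133 FPKM, a ratio of 5.90. Apobec1, a cytidine deaminase that edits RNA, was lower in the knockout than in control without LPS, and lower with LPS in both, with 397, 108, 176 and 44.0 FPKM.

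Cell cycle genes lay on both sides. Of 39 genes 22 were tested, 6 were at least 2-fold higher and 5 lower, and the median was -0.68. The lower count depended on the setting, with 10 and 11 after the upper-quartile scalings and 2 with a pseudocount of 5 FPKM, while the higher count was 6 in each. On the deposited scale the lower ones were the cyclins Ccnd1 and Ccnd3 and the replication helicase subunits Mcm2, Mcm6 and Mcm7. Among the higher ones were Cdkn1a, the inhibitor p21, at 178 to 959 FPKM, and the cyclins Ccne1 and Ccnd2. Mki67, a marker of cycling cells, was also at least 2-fold higher, with a log2 ratio of 2.21. Its level was low in both libraries, at 0.697 to 6.86 FPKM.

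Lists of basic cell machinery showed few genes past 2-fold. Of 79 cytosolic ribosomal protein genes 1 was higher, Rpl26, and 1 lower, Rps27, both of which share sequence with copies, and the median of 0.17 turned to -0.02 after upper-quartile scaling. Of 89 nuclear-encoded respiratory chain genes Ndufs5 was higher and Sdhaf1 lower. Ndufs5 was listed at 0.016 and 34.9 FPKM without and with LPS in control, and at 1.13 and 56.5 FPKM in the knockout. Its knockout ratio rests on about 7 fragments without LPS, and how reads were assigned to it was not tested. Of 39 lysosome and proton pump genes 2 were higher, Ctsc and Atp6v1e1, and 2 lower, Gusb and Npc1. Of 34 constitutive proteasome genes 4 were higher, with ratios from 1.01 to 1.38, and 2 after upper-quartile scaling. The common control genes Actb and Gapdh had log2 ratios of 0.53 and 0.76.

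The most abundant transcripts with LPS were a mixture of ferritin and induced genes. After Fth1 at 33244 FPKM came Ccl3 at 21376, Ccl4 at 18411, Ftl1 at 17538 and Cxcl2 at 13211 FPKM. Without LPS these 3 chemokines had stood at 217, 141 and 43.7 FPKM. Il1b, Tnf, Ccl5 and Saa3 were also among the 15 highest that are not small RNA, unnamed or ribosomal protein genes. The others were housekeeping or antioxidant genes whose ratios were under 2-fold, apart from Sqstm1.

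**Figure D4:**
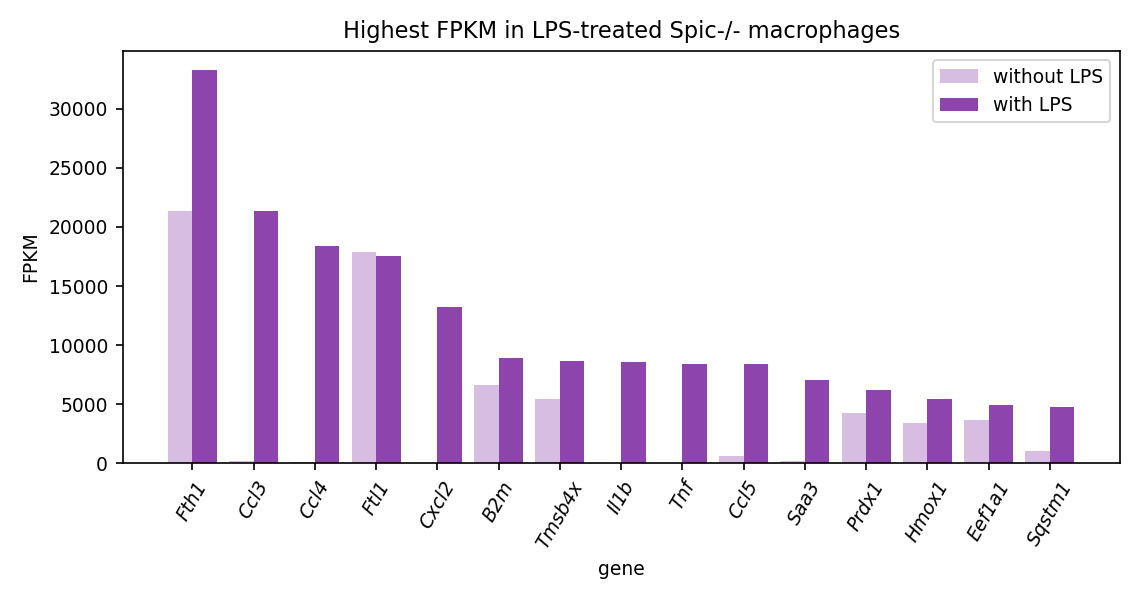
FPKM of the 15 genes with the highest level in the LPS-treated knockout library, leaving out small RNA, unnamed and ribosomal protein genes, without LPS (light bars) and with LPS (dark bars), on a linear axis from 0. Ccl3, Ccl4, Cxcl2, Il1b and Tnf have bars that are barely visible without LPS, and Fth1 and Ftl1 are high in both.

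Some genes were near 0 at one treatment and clearly present at the other. Under 1 FPKM without LPS and at 5 FPKM or more with it were 76 genes, 15 of them small RNA or unnamed, and the reverse held for 52 genes, 18 of them small RNA or unnamed. Of the former, leaving out small RNA and unnamed genes, Edn1, Nos2, Il12b, Csf3, Cxcl11, Adora2a, Tnfsf15 and Il4i1 had the highest FPKM with LPS. Il4i1, an enzyme that oxidises aromatic amino acids, was listed at 0 without LPS and stood at 48.8 FPKM with it, and Csf3 went from 0.0669 to 55.1 FPKM. Of the latter, Rab3il1, Snhg9, Gpr183, Plekhg3, Snx30 and Slc46a3 stood between 7.71 and 17.7 FPKM without LPS, and several small RNA genes stood higher.

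The LPS response was compared with that of control cells. In control 992 of 8050 genes (12.3%) were at least 2-fold higher and 523 (6.5%) lower, and of the genes counted in the knockout 909 higher ones (82.0%) and 429 lower ones (68.4%) were also counted in control, 91.6% and 82.0% of the control genes. Across 8272 genes with at least 5 FPKM in any library, the ratios of the genotypes gave Pearson r = 0.896 and Spearman rho = 0.954, which are across genes and not across replicates. These were 0.977 and 0.962 without small RNA and unnamed genes, over 7686 genes. Among the 1909 genes at least 2-fold higher or lower in either genotype, 31 had a knockout ratio at least 2-fold larger than the control ratio (1.62%) and 36 a ratio at least 2-fold smaller (1.89%), and 1711 (89.6%) differed by less than 1.5-fold. The difference of responses has no replicate and was not tested. The genotypes do not share libraries in these ratios. Without small RNA and unnamed genes the counts were 12 and 14.

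**Figure D5:**
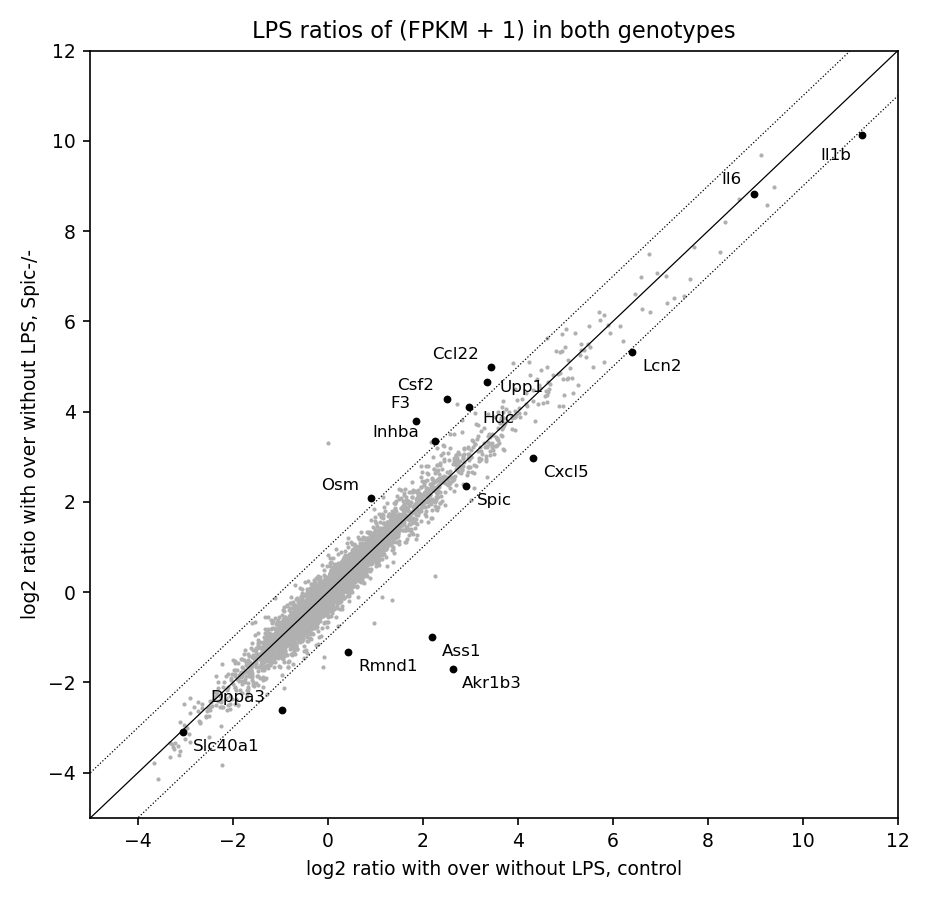
Log2 ratio with over without LPS in control (horizontal) and in the knockout (vertical) for named genes with at least 5 FPKM in any library, with the line of equality and dotted lines at a 2-fold difference of the ratios. Most points follow the line, and the labelled genes outside the dotted lines include F3, Csf2, Ccl22 and Upp1 above and Akr1b3, Ass1 and Rmnd1 below.

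The largest differences towards the knockout lay mostly in genes that were low without LPS. F3, tissue factor, which starts coagulation, was listed at 1.496, 7.97, 0.602 and 21.4 FPKM, so that its level with LPS was higher and its level without LPS lower in the knockout, with log2 ratios of 3.81 in the knockout and 1.85 in control. Csf2 was listed at 0, 4.69, 0.187 and 22.2 FPKM, with ratios of 4.29 and 2.51. The FPKM ratio of Csf2 in the knockout rests on about 1 fragment without LPS, with an interval of 29.9 to 6779. Ccl22, an attractant of regulatory T cells, was listed at 0.2, 11.9, 0.0964 and 33.9 FPKM, and Inhba, an activin subunit, at 4.60, 25.8, 3.86 and 48.5 FPKM. Shisa3, Upp1, Il23a, Osm, Il1f6 and Hdc had differences between 1.13 and 1.45. In each of these 10 genes the knockout library with LPS held the highest of the 4 values, which follows largely from how they were chosen. Il23a and Il1f6 were listed at 0 in both libraries without LPS.

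The largest differences towards control were of several kinds. Akr1b3, an aldose reductase with close copies, was listed at 0, 5.23, 2.26 and 0 FPKM. Ass1, which makes argininosuccinate for the recycling of arginine, was listed at 2.56, 15.2, 9.21 and 4.09 FPKM, past 2-fold upwards in control and past 2-fold downwards in the knockout, at log2 ratios of 2.18 and -1.003. Cxcl5, a neutrophil attractant, was listed at 0.265, 24.3, 0.16 and 8.05 FPKM, with ratios of 4.32 in control and 2.96 in the knockout. Il1b had a difference of -1.13 and a knockout value above that of control both without LPS and with it, by the larger factor without LPS. With a pseudocount of 5 FPKM its difference was -0.31. A pseudocount of 5 FPKM left 26 genes with a smaller and 25 with a larger knockout ratio.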

How the data were processed

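RNA from 4 cultures of hemin-treated bone marrow-derived macrophages was sequenced, 1 library for each combination of genotype and LPS. Libraries were stranded and poly(A)-selected by kit, per the labels' protocols. The submitters' processing notes name Cuffnorm 2.2.1, SAMtools 0.1.19, TopHat2 2.0.13, Bowtie2 2.2.3 and mm10, with no role or setting. The annotation was not given in the sources used here. Only FPKM per gene and library was deposited by the authors, so models of counts were not run.

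Log2 ratios used a pseudocount of 1 FPKM, a minimum of 5 FPKM in at least 1 library and a threshold of 2-fold, and understate the change of low genes. No test was run. Fragments were estimated from the spacing of low FPKM values, where 2641 of 3175 genes (83.2%) were whole multiples of a common step within 0.02, and from GENCODE vM21 exon lengths less 210 bases. Named genes were Spic, the 15 highest and lowest ratios, the 10 largest differences between genotypes in each direction, the 15 most abundant, 10 switched on or off and up to 4 of each of 59 lists. Some genes were named beside these rules as examples, chosen after their values were seen, as were the members of several count sentences, the Gbp5 promoter and corrections to the patterns for the GTPase and receptor lists. Members and lists were chosen with earlier results of these data known. Promoters came from RefSeq for 6533 of the 8098 genes by symbol or older symbol. Some genes that these rules name are not reported here. The counting was tested on simulated data. Python 3.11.15, numpy 2.4.6, pandas 2.3.3, scipy 1.17.1 and matplotlib 3.10.9 were used.

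Alternatives were a pseudocount of 0.1 or 5 FPKM, a minimum of 1 or 20 FPKM or none, median-ratio or upper-quartile scaling, no small RNA or unnamed genes, and a 3-fold threshold. Upper-quartile scaling over genes above 0 in every library was added after seeing the data.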

Additional observations from a re-analysis of the deposited data

Results flagged for a closer look

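Ass1, an enzyme of arginine recycling, was marked because its LPS ratio was past 2-fold in opposite directions in the 2 genotypes. It was listed at 2.56 FPKM without and 15.2 FPKM with LPS in control, and at 9.21 FPKM without and 4.09 FPKM with LPS in the knockout. The difference of the log2 ratios, knockout minus control, was -3.19. The difference was not tested, since each value comes from 1 library. The knockout log2 ratio of -1.003 lies at the threshold and was -0.64 with a pseudocount of 5 FPKM. Ass1 has processed copies in the genome, and the sources used here do not say how shared reads were assigned.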

How the results depend on the processing

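The LPS library of the knockout held 51.6% of the fragments per FPKM of the untreated control, which limits low genes. No alternative replaces replicates. Of the named genes, 238 passed 2-fold in the knockout. All of these kept 2-fold with a pseudocount of 0.1 FPKM, 221 with 5 FPKM, 236 after median-ratio scaling and 229 after upper-quartile scaling, and none reversed. A smaller pseudocount can only enlarge the size of a log2 ratio, and median-ratio scaling shifted log2 ratios by only 0.006. Calls kept under these settings therefore say little about how firm they are. Sfpi1, Dld, Coro1a, Ywhaz, Atp6v1e1, Psmd11, Psmb6 and Mrpl52 were among those under 2-fold after upper-quartile scaling. The count of lower genes, 627, was 263 with a pseudocount of 5 FPKM, 210 with a minimum of 20 FPKM, 213 at 3-fold and 984 after upper-quartile scaling over genes above 0 in every library. The count of higher genes, 1109, was 620 at 3-fold. The median, 0.12, was 0.021 with a minimum of 1 FPKM, 0 without a minimum and 0.29 with 20 FPKM. It reversed to -0.049 and -0.13 after the upper-quartile scalings. The 31 genes with a larger knockout ratio became 12 without small RNA and unnamed genes and 20 at 3-fold. The 36 with a smaller one became 62 with a pseudocount of 0.1 FPKM, 56 with a minimum of 1 FPKM or none, and 14 without small RNA and unnamed genes. The causes of these shifts were not tested. No paired analysis was possible because each group has 1 library and no replicate numbers.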
